A study of Mus musculus with 249 samples.

Results

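The 5 genes described here, Doc2g, Eomes, Tbx21, S100a5 and Calb2, are grouped as genes of the sense of smell. Of these, 4 are known from cells of the olfactory bulb and S100a5 from the sensory neurons whose axons end there. Some are also made elsewhere, and Calb2 did not follow Doc2g, Tbx21 or S100a5 here (r of 0.0712, 0.0441 and 0.0677). The 5 genes were chosen by name, as the probes that carry no other gene symbol, out of 11508 genes with usable probes. Each has 1 probe on the array. The choice was made with their spread and their correlations in these animals already known, so those values are a description and carry no test. Brain RNA came from 248 female and male F2 mice of an intercross between the strains C57BL/J6 and C3H/HeJ, both on an ApoE null background, which every animal shares, and all were fed a Western diet, high in fat, between 8 and 24 weeks of age. Each animal was measured on 1 array with 2 colours, Cy3 for the animal and Cy5 for a common pool that the labels describe as RNA of all samples, and the animals form 1 group, with neither sex nor genotype nor array batch given for each of them. The array of animal 144 is left out of the main values, since its transcripts set it apart from the other 248.

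Each value is the log10 of the ratio between animal and pool: 0 is the level of the pool, 0.301 is a factor of 2, and levels of different genes cannot be set against each other. Precision is limited by the number of arrays, 1 per animal and without a repeat. Array medians ran between -0.00627 and 0.0250. The spread of probes within an array was 0.392 (SD) for animal 144, against a median of 0.0764 and a highest of 0.258 for the other 248. On that array the median of 5 general neuron genes was -1.48, against -0.428 to 0.0773 on the others. The median of 7 lung genes was 0.773 on that array, against -1.48 to -0.977 on the others, so that the pool stood far above each of the 248 brains in these transcripts. A ratio to the pool cannot show whether a marker is present, only whether it is higher or lower than in the pool.

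The olfactory bulb is the first relay of smell in the brain. Axons of olfactory sensory neurons enter its glomeruli, where they meet mitral and tufted cells, the glutamatergic neurons that carry the signal on to the cortex, while periglomerular and granule cells inhibit them. Eomes (Tbr2) and Tbx21 (T-bet) are T-box transcription factors that mark mitral and tufted cells. Both are also known from T and NK lymphocytes, and Eomes from the unipolar brush cells of the cerebellum. Doc2g is a protein of the Doc2 family, whose relatives bind phospholipid at synaptic vesicles. S100a5 is a small calcium-binding protein of olfactory sensory neurons, and Calb2 (calretinin) is a calcium-binding protein of bulb interneurons that granule cells of the cerebellum and neurons of the thalamus also make.

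The promoters of the genes that varied most alike, Doc2g, Tbx21 and S100a5, are shown because the T-box factors Eomes and Tbx21 bind DNA at sites built on the letters TCACAC. The RefSeq sequences of build GRCm38.p6 hold 250 bases before and 50 bases after each start, on the strand of the gene, and 4 of the 5 genes have one, Calb2 not being in the table. Capitals mark TCACAC or its reverse complement GTGTGA.
Doc2g, chr19:4003135-4003434, plus strand: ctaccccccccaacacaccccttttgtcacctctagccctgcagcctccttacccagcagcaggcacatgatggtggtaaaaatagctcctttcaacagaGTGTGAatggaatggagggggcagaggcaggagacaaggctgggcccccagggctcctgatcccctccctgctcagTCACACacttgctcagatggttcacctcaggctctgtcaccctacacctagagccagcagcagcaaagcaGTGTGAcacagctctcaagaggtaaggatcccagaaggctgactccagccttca
Tbx21, chr11:97115282-97115581, minus strand: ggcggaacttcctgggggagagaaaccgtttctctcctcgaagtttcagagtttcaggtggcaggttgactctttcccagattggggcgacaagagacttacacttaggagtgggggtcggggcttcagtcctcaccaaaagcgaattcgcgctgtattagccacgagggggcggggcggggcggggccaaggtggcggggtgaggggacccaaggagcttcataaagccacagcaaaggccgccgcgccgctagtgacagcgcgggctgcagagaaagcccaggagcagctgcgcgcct
S100a5, chr3:90608272-90608571, plus strand: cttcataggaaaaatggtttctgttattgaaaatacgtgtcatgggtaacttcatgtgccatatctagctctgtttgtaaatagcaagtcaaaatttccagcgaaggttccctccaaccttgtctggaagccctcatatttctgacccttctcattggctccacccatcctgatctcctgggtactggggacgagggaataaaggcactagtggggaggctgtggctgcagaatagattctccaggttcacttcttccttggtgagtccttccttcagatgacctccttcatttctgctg

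The letters TCACAC, searched on both strands, occurred 3 times in the Doc2g promoter and 0 times in those of Tbx21, S100a5 and Eomes, and 14.4% of 27025 mouse promoters of this length hold them at least once. The longer TCACACC (3.96% of promoters), which contains the shorter motif, and TATAAA (14.2%) occurred in none of the 4. The promoter of Tbx21 had 62% G and C and 21 CpG pairs, that of Doc2g 57% and 0, that of Eomes 47.3% and 10, and that of S100a5 46.3% and 3, against a median of 52.7% G and C over all promoters. A match is a run of letters and not a measured site, and the lack of one says only that these letters are not in this window.

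Doc2g stood between -0.282 and 0.572 over the 248 animals, with a median of -0.0850 and an SD of 0.156 ± 0.00725 (jackknife SE). Its level was above that of the pool in 81 animals, and the 5th and 95th percentiles lay 2.98-fold apart. Most animals were thus slightly under the pool and a smaller number well above it.

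Eomes ran between -0.672 and 0.444, with a median of -0.0730 and an SD of 0.214 ± 0.0104. It differed from Doc2g in its lower end, where a few animals lay far below the rest, and 96 animals stood above the pool. The 5th and 95th percentiles lay 4.98-fold apart.

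Tbx21 ran between -0.562 and 0.611, with a median of -0.209 and an SD of 0.271 ± 0.00934, and 86 animals stood above the pool. S100a5 had the widest spread of the 5, between -0.678 and 1.05, with a median of -0.349 and an SD of 0.380 ± 0.0159, and 72 animals stood above the pool. The 5th and 95th percentiles lay 6.29-fold apart for Tbx21 and 13.2-fold for S100a5. In 45 animals S100a5 was more than 2-fold above the pool, against 25 animals for Tbx21, 13 for Eomes and 7 for Doc2g.

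Calb2, measured in 242 of the 248 animals, ran between -0.526 and 0.211, with a median of 0.0101 and an SD of 0.0965 ± 0.00878 (n = 242). Its distribution leaned the other way, with most animals close to the pool and a few far below. In order of SD among all genes S100a5 ranked 16, Tbx21 38, Eomes 72, Doc2g 232 and Calb2 1155 of 11508. The median SD of all genes was 0.0546 and the 95th percentile 0.115, so Calb2 lay below that percentile and the other 4 above it.

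**Figure D1:**
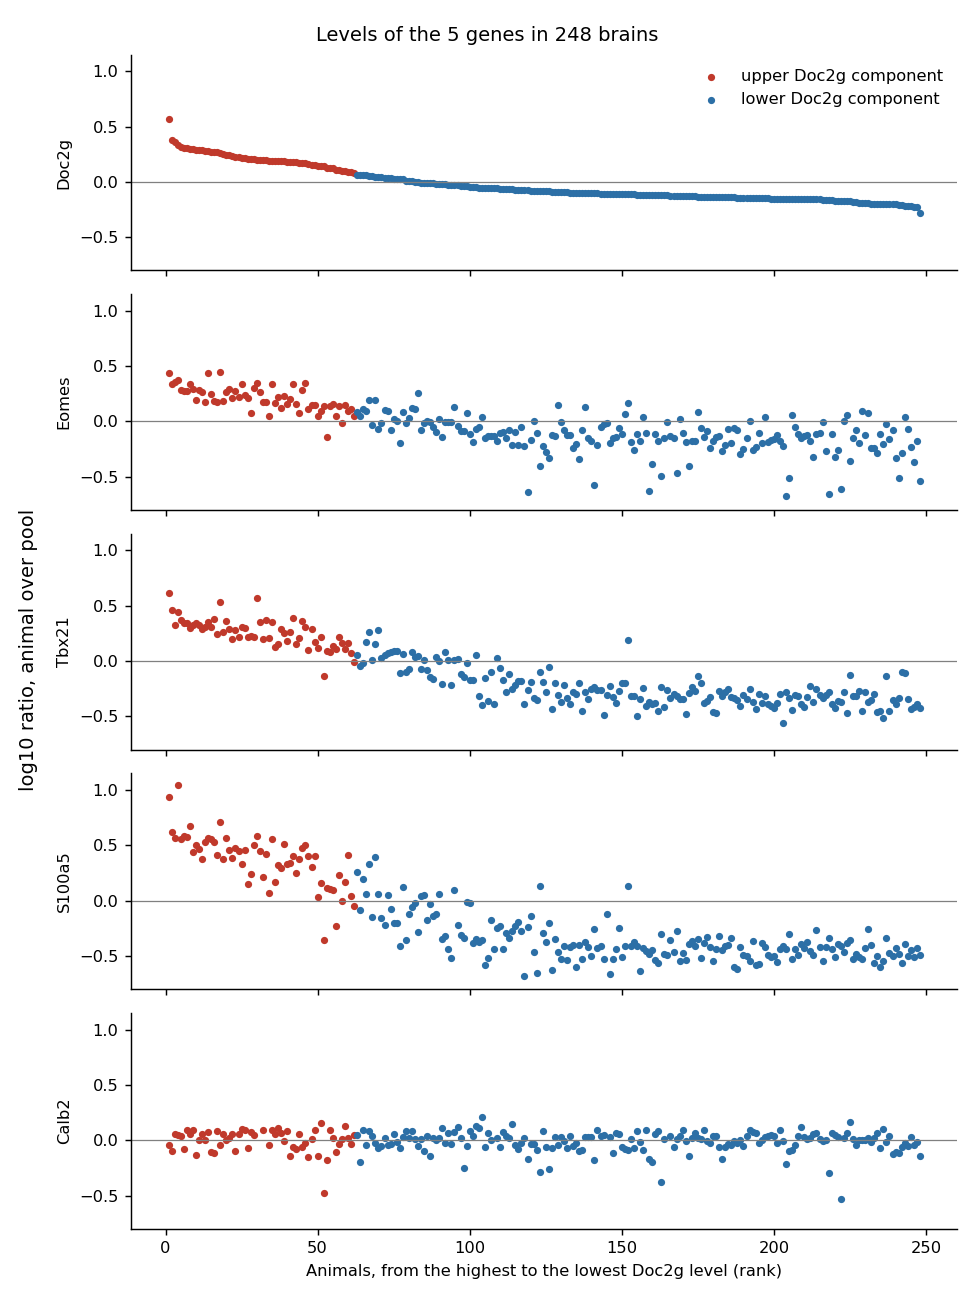
Levels of Doc2g, Eomes, Tbx21, S100a5 and Calb2 (log10 ratio of animal to pool) in the 248 brains, 1 point per animal, with the animals in the order of their Doc2g level. Red points are the 62 animals of the upper Doc2g component and blue points the 186 of the lower one; Tbx21 and S100a5 follow the order closely, Eomes more loosely, and Calb2 stays near 0 along it.

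Single animals show how the levels went together. Animal 28, the highest in Doc2g at 0.572, had 0.435 for Eomes, 0.611 for Tbx21 and 0.935 for S100a5, which is also the highest Tbx21 of all. Animal 26, with Doc2g at 0.333, had the highest S100a5, 1.05, with Eomes at 0.377 and Tbx21 at 0.444. Both were close to the pool in Calb2, at -0.0434 and 0.0478.

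Animal 147, of median rank in Doc2g (-0.0839), stood at -0.220 for Eomes, -0.190 for Tbx21 and -0.295 for S100a5. Animal 122, the lowest in Doc2g at -0.282, had Eomes at -0.541, Tbx21 at -0.420, S100a5 at -0.492 and Calb2 at -0.145. In these 4 animals Doc2g, Tbx21 and S100a5 were all above or all below the pool, which does not hold for each animal: animal 336 had Doc2g at 0.144 and Eomes at 0.136 with Tbx21 at -0.133 and S100a5 at -0.359. In whole brains, fewer cells of a type and less RNA per cell cannot be told apart.

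A mixture of 2 normal distributions of equal variance described Doc2g, Tbx21 and S100a5 better than 1 normal. The gain in the Bayesian information criterion (BIC) was 88.9 for Doc2g, 75.3 for Tbx21 and 109 for S100a5, with component means 4.08, 3.91 and 4.31 within-component SD apart. The upper component held 62 animals for Doc2g, at a mean of 0.207 against -0.104 for the lower, a step of 2.05-fold. For Tbx21 it held 89 animals, with means of 0.206 and -0.293 and a step of 3.16-fold. For S100a5 it held 72 animals, with means of 0.365 and -0.385 and a step of 5.62-fold.

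The 3 genes placed largely the same animals high. All 3 were in the upper component in 58 animals and all 3 in the lower in 156, and the other 34 animals were upper for 2 genes (15) or for 1 gene (19). Tbx21 was upper with Doc2g lower in 28 animals, and lower with Doc2g upper in 1. The steps were not clean: 24 animals for Doc2g, 26 for Tbx21 and 25 for S100a5 lay in the middle one of 3 equal parts of the way between the component means. Eomes had no such step, with a BIC gain of -6.46 for 2 normals over 1, and in Calb2 the mixture set apart 7 low animals at a mean of -0.336 against 0.00179 for the other 235.

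In an F2 intercross a single locus gives genotypes in the proportions 25%, 50% and 25%, so that a level set by it falls into 3 groups where the alleles add and into 2 groups, of 25% and 75%, where one is dominant. The fits below describe the values of Tbx21 and do not test for such a locus. With those weights fixed, the low and the middle mean of Tbx21 fell on the same value, -0.285, with the high mean at 0.218. The mixture thus drew 2 levels, the number that a dominant allele also gives. The 2 free components gained 10.4 in BIC over it, and put 35.9% of animals in the upper component. Whether a single locus sets the level of Tbx21 was not tested. For Doc2g, with 25% in the upper component, and for S100a5, with 29.0%, that gain was 0.0594 and 1.04. The proportions of Doc2g and S100a5 thus did not tell a 25% group from a free share, and no genotype was at hand to set beside them. With the part of Tbx21 that follows Doc2g and Eomes removed, the SD of what was left was 0.107, and the BIC gain over 1 normal was -1.44 for 2 components and -9.50 for the weighted 3. For what was left of S100a5 it was -9.08 and -11.0. Doc2g had 2 components itself and r of 0.916 with Tbx21 and 0.915 with S100a5, so its removal takes out any step they share, whatever set it. The values left therefore do not show whether that step is inherited, which was not tested.

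Doc2g, Tbx21 and S100a5 formed the closest set of pairs. The pooled r was 0.916 for Doc2g and Tbx21 (Fisher z 95% interval 0.893 to 0.934), 0.915 for Doc2g and S100a5 (0.893 to 0.934) and 0.922 for Tbx21 and S100a5 (0.901 to 0.939), with rho of 0.846, 0.804 and 0.855. These include the step between the components, so r was also taken within the upper and lower Doc2g components of 62 and 186 animals. There it was 0.719 and 0.753 for Doc2g with Tbx21, 0.742 and 0.671 for Doc2g with S100a5, and 0.843 and 0.759 for Tbx21 with S100a5. Since Doc2g defined the components, the values with Doc2g itself are those of a restricted range.

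Eomes followed the 3 less closely, with r of 0.775 for Doc2g, 0.755 for Tbx21 and 0.741 for S100a5. Its r with Tbx21 was 0.747 in the upper and 0.413 in the lower component, and with S100a5 0.756 and 0.332. The difference between the components was not tested. The low tail of Eomes lies in the lower component, as the plot of levels shows.

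Calb2 had an r of 0.0712 with Doc2g (95% interval -0.0554 to 0.196), 0.0441 with Tbx21 (-0.0825 to 0.169) and 0.0677 with S100a5 (-0.0589 to 0.192), all over 242 animals. With Eomes its r was 0.307 (0.188 to 0.417) and its rho 0.174. The intervals of r with Doc2g, Tbx21 and S100a5 thus included 0, and that with Eomes did not.

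**Figure D2:**
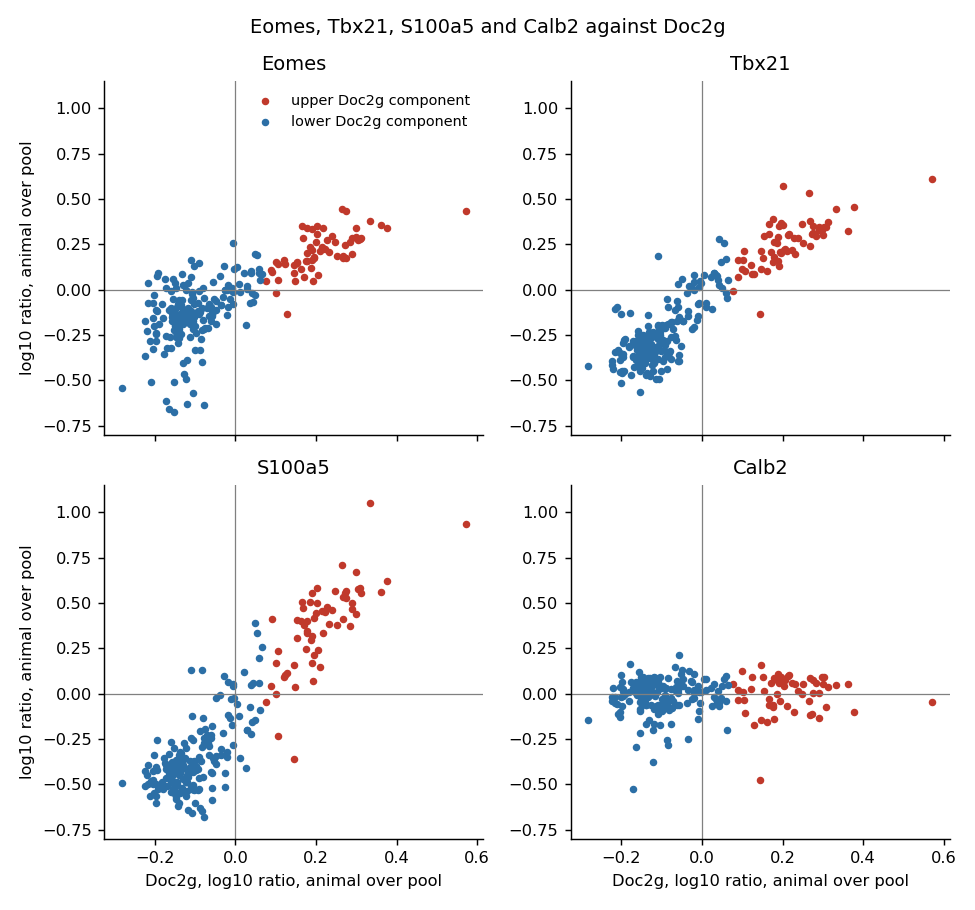
Eomes, Tbx21, S100a5 and Calb2 (vertical axes) against Doc2g (horizontal axes), all as log10 ratios of animal to pool, 1 point per animal, red for the upper and blue for the lower Doc2g component. Tbx21 and S100a5 rise along 1 band with Doc2g (r of 0.916 and 0.915), Eomes has low animals beneath the band (r of 0.775), and Calb2 is level (r of 0.0712).

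Doc2g alone accounted for 83.9% of the variance of Tbx21 and 83.8% of that of S100a5, and Doc2g with Eomes for 84.4% and 84.0%. With S100a5 added the share of Tbx21 was 88.4%, and with Tbx21 added the share of S100a5 was 88.1%. What Doc2g and Eomes left of Tbx21 and of S100a5 correlated at 0.507 (n = 248). Doc2g accounted for 60.1% of the variance of Eomes and for 0.507% of that of Calb2, and Doc2g with Eomes for 16.2% of that of Calb2 (n = 242). Tbx21 was thus tied to the other bulb genes as closely as S100a5 was. Doc2g and Eomes carry a measurement error of unknown size, since no animal was measured again, and variation shared by the region can stay behind for that reason in what they leave.

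To see which other transcripts went with each of the 5, the log10 ratio of every other gene was regressed on the level of 1 gene at a time over the animals, with limma and Benjamini-Hochberg adjustment over the whole array. At an adjusted p under 0.05, 1473 genes (12.8% of 11507) were called with Doc2g, 948 of them rising. With Eomes 3035 genes (26.4%) were called, with Tbx21 437 (3.8%), with S100a5 311 (2.7%) and with Calb2 6164 (53.6%). Some of these counts moved by more than 1.5 times with the settings: on ranks 2668 genes were called with Doc2g and 682 with Tbx21, with arrays scaled to 1 SD 789 with Tbx21, and with animal 144 included 1869 with Tbx21 and 192 with S100a5. Those that rose and those that fell were 8.24% and 4.56% of all genes with Doc2g, 13.3% and 13.1% with Eomes, 2.63% and 1.16% with Tbx21, 2.15% and 0.556% with S100a5, and 24.2% and 29.4% with Calb2. The percentages are the backgrounds against which the lists below are to be read. The median r over all genes lay between -0.0155 and 0.000966 in the 5 fits.

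Scgn and CPA6 were the genes most like Tbx21, and also those most like S100a5, outside the 5. Scgn (secretagogin, a calcium-binding protein of bulb interneurons) stood between -0.468 and 0.676 over the animals, with a median of -0.127. Its r was 0.861 with Doc2g, 0.917 with Tbx21 and 0.916 with S100a5 (n = 248). Its slope on Tbx21 was 0.867 ± 0.0239 (SE) on the log10 scale, at an adjusted p of 1.18e-97 in limma.

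A probe named CPA6 in the array's annotation, a carboxypeptidase that was not placed on the assembly, had r of 0.881, 0.906 and 0.913 with Doc2g, Tbx21 and S100a5. The transcription factor Foxd3 followed with 0.850 for Doc2g and 0.854 for S100a5, and Tfap2c, another transcription factor, with 0.863 for Tbx21. For Eomes the closest gene was Ppm1j, a protein phosphatase, at 0.806, ahead of Doc2g itself.

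The genes with the lowest r had weaker relations. Calml4, a calmodulin-like protein, had r of -0.375 with Doc2g, -0.320 with Tbx21 and -0.292 with S100a5. Kcnj13, a potassium channel of the choroid plexus, had -0.344 with Doc2g and -0.324 with Tbx21. With Eomes the lowest was Pde10a, the phosphodiesterase of striatal neurons, at -0.441 (limma, adjusted p = 8.44e-11).

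Bulb interneuron genes rose with 4 of the 5. Of 16 measured genes of that list 9 rose with Doc2g (8.24% of all genes), 13 with Eomes (13.3%), 8 with Tbx21 (2.63%) and 8 with S100a5 (2.15%), while 1 fell with Eomes (Gad2) and 0 with the other 3. The median r of the list was 0.266 with Doc2g, 0.311 with Eomes, 0.216 with Tbx21 and 0.230 with S100a5. After Scgn the strongest was Dlx1, a homeobox factor of forebrain interneurons, with a slope of 0.588 ± 0.0336 on Doc2g, r = 0.743. Its relatives Dlx2 and Dlx5 had r of 0.687 and 0.495 with Doc2g, and Th, the dopamine synthesis enzyme of periglomerular cells, 0.275. Sp8, an interneuron factor, had the smallest slope among those that passed with Doc2g and with Tbx21, 0.0769 and 0.0447. List members other than those of largest or smallest slope are named with their values known.

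Of the 6 measured mitral and tufted cell genes, 2 rose with Doc2g, Tbx21 and S100a5 alike, against 8.24%, 2.63% and 2.15% of all genes. They were Cdhr1, a cadherin of these cells, with r of 0.635, 0.605 and 0.536, and Trh (thyrotropin-releasing hormone) with 0.473, 0.510 and 0.507. Slc17a6, the vesicular glutamate transporter, fell with Tbx21 at r = -0.215. With Eomes 3 rose (Reln, Cdhr1 and Trh) and 2 fell (Slc17a6 and Tbr1), against 13.3% and 13.1% of all genes. Reln, the secreted glycoprotein reelin, which cerebellar granule cells also make, had the largest slope there, 0.158 ± 0.0203.

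Migrating neuroblasts reach the bulb from the ventricle wall throughout life. Of 11 genes of that list 4 rose with each of Doc2g, Tbx21 and S100a5, against 8.24%, 2.63% and 2.15% of all genes. They were Igfbpl1, Sox4, Prokr2 and Robo2 in each case. Igfbpl1 had the largest slope on all 3, with r of 0.614, 0.624 and 0.589. With Eomes 5 rose (13.3% of all genes rose), and Ccnd2 and Dpysl3 fell (13.1% of all genes fell).

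S100a5 is made by olfactory sensory neurons, and 13 genes of those cells were measured. With S100a5, as with Doc2g and Tbx21, 3 of them rose: the odour transduction channel subunits Cnga2 and Cnga4, and Stoml3. Of all genes 2.15%, 8.24% and 2.63% rose with S100a5, Doc2g and Tbx21. Cnga2 had r of 0.513 with S100a5, 0.459 with Doc2g and 0.443 with Tbx21, and its slope on S100a5 was 0.235 ± 0.0249. The other 10, Omp (olfactory marker protein) and Gng13 among them, did not pass with S100a5. On ranks the number rising was 2 with S100a5 and 1 each with Doc2g and Tbx21. The list had a median r of 0.00285 with S100a5. Of the 3 ensheathing cell genes measured 0 passed with S100a5 in limma (2.7% of all genes), with 0 at an unadjusted p under 0.05 and 0 on ranks.

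**Figure D3:**
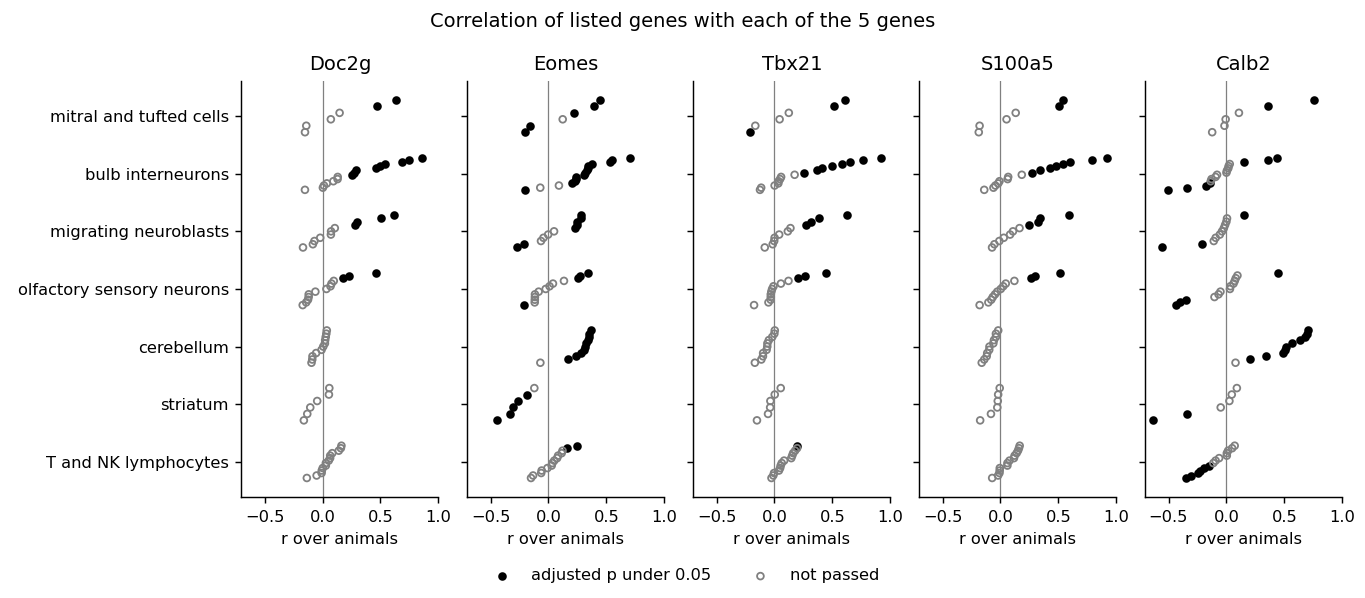
Pearson r over animals (horizontal axes) of each measured gene of 7 lists (rows) with Doc2g, Eomes, Tbx21, S100a5 and Calb2 (panels), 1 point per listed gene, filled where the limma fit passed an adjusted p of 0.05. Bulb interneuron genes extend to the right for the first 4 genes, and cerebellum genes do so for Eomes and Calb2.

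The counts of relatives called with S100a5, Tbx21 and Doc2g were near the shares of all genes. With S100a5, 0 of 10 other S100 genes passed in limma (2.7% of all genes), 3 of them at an unadjusted p under 0.05, and 1 passed on ranks. S100a3 and S100a6, its nearest measured neighbours on chromosome 3, had r of 0.0202 and -0.000374 with it. With Tbx21, 0 of 13 other T-box genes passed (3.8% of all genes), with 0 at an unadjusted p under 0.05 and 0 on ranks. With Doc2g, 1 of 13 genes of the Doc2 and synaptotagmin family rose (8.24% of all genes rose). It was Syt6, at r = 0.409, and Doc2a and Doc2b did not pass. Of 11 relatives of Calb2 and neuronal calcium sensors 5 rose and 4 fell with it, against 24.2% and 29.4% of all genes.

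Cerebellar transcripts divided the 5 genes. Of 11 measured cerebellum genes 10 rose with Eomes (13.3% of all genes rose) and 10 with Calb2 (24.2% rose), all but Lmx1a in both. With Doc2g, Tbx21 and S100a5 0 of 11 passed in limma, against 12.8%, 3.8% and 2.7% of all genes. At an unadjusted p under 0.05, 0, 1 and 2 fell with these 3 genes, and on ranks 1 fell with each. The median r of the list was 0.313 with Eomes and 0.515 with Calb2, against 0.00615 with Doc2g.

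The largest slope on both was that of Gabra6, a GABA receptor subunit known from granule cells of the cerebellum. It was 0.611 ± 0.106 on Eomes (r = 0.344, rho = 0.138) and 2.26 ± 0.211 on Calb2 (r = 0.567, rho = 0.368). Grm4, a glutamate receptor of parallel fibres, had the smallest of those that rose, 0.0311 on Eomes and 0.202 on Calb2. On ranks, which give less weight to the animals far below the pool, 5 of the 11 rose with Eomes and 9 with Calb2.

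With Doc2g held constant, what was left of Eomes followed the cerebellum more closely. Again 10 of 11 rose (18.3% of all genes rose and 22.2% fell), with a median r of 0.490, and 7 of 11 on ranks. Its r with Gabra6 was 0.651 and its rho 0.450. For Pcp2 and Cbln1, also genes of the cerebellum list, r was 0.604 and 0.546, and rho was 0.373 and 0.159. Doc2g and Gabra6 together accounted for 77.1% of the variance of Eomes, against 60.1% for Doc2g and 11.8% for Gabra6 alone. By contrast Gabra6 accounted for 0.751% of the variance of Doc2g, 0.959% of that of Tbx21 and 1.30% of that of S100a5.

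Other genes tied to Eomes with Doc2g held constant included Pax6 and Calb1, both of which bulb and cerebellum share, at r of 0.691 and 0.680. The smallest p belonged to the kinase gene Snrk, at 0.696, followed by A2m (0.692), Pax6 and Il22 (0.688). In the striatum list 0 genes rose and 5 of 6 fell with Eomes (13.1% of all genes fell), led by Pde10a, and of 5 cortical glutamatergic genes 4 fell. Neither list had a gene that passed in limma with Doc2g, Tbx21 or S100a5, with which 12.8%, 3.8% and 2.7% of all genes were called. At an unadjusted p under 0.05, 2, 1 and 1 striatal genes fell with these 3 and 2, 0 and 0 cortical genes rose, while 1 cortical gene fell with Tbx21. On ranks 0 striatal genes passed with any of the 3, and 2 cortical genes rose and 1 fell with Doc2g alone of them.

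Of the cerebellar genes Pcp2, known from Purkinje cells, accounted for 48.8% of the variance of Calb2 and Gabra6 for 32.1%. The r of Calb2 with Pcp2 was 0.698 with a rho of 0.625. Pcp2 lies on chromosome 8, as Calb2 does, and had the highest r in size with Calb2 there. Cbln1, also on the cerebellum list, lies 109 places from Calb2 on that chromosome and had an r of 0.679. The part of the shared chromosome in these values was not tested. The 5 genes most like Calb2 over the array were St8sia5, a sialyltransferase (0.775), Pkp3, a plakophilin (0.775), Gdf10, a growth factor (0.770), Lhx5, a homeobox factor on the mitral and tufted list (0.756), and Gas7 (0.754). Tac1, the precursor of substance P, was among the lowest, at -0.638.

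Of the 16 bulb interneuron genes 3 rose and 4 fell with Calb2, counts near the 24.2% and 29.4% of all genes that rose and fell with it. Meis2 had the lowest slope, -0.534 ± 0.0582, and Pax6 the highest, 0.533 ± 0.0710. Calb2 also fell as arrays widened, at r = -0.289 with the SD of the array over genes, which for the other 4 lay between -0.0690 and 0.0546. The part of array width in the count of genes called with Calb2 was not tested.

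The animals lowest in Calb2 show the relation and an exception to it. Animal 43 had Calb2 at -0.526 with Gabra6 at -1.74 and Pcp2 at -0.464, and animal 252 had -0.374, -1.03 and -0.444. Animals 9 and 157 had Calb2 at -0.294 and -0.283 with Gabra6 at -1.43 and -1.39. In animal 336, with Calb2 at -0.476, Gabra6 was 0.0446 and Pcp2 -0.0572, and its array SD was 0.179. Animal 89, the highest in Calb2 at 0.211, had Gabra6 at 0.506 and Pcp2 at 0.251.

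**Figure D4:**
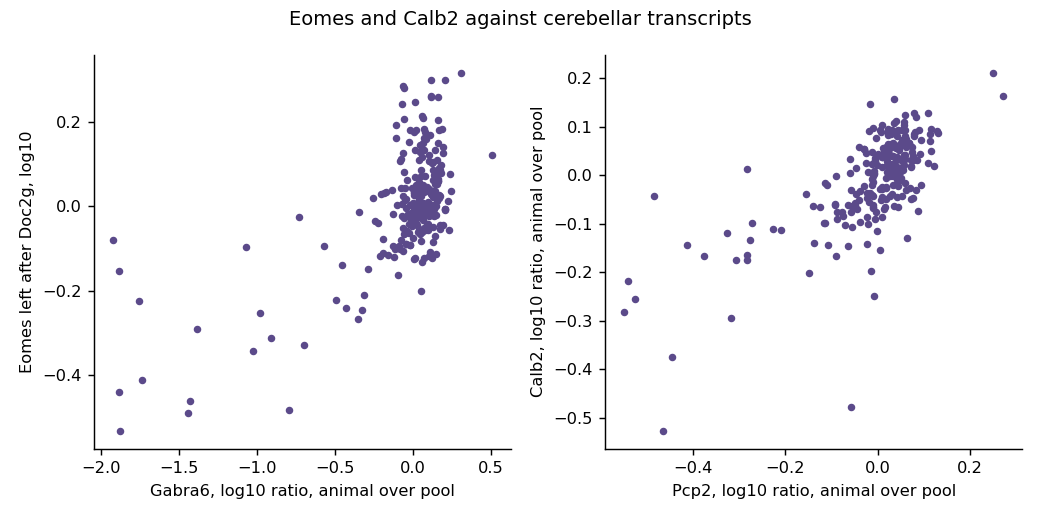
Left, Eomes after the part that follows Doc2g was removed (log10) against Gabra6; right, Calb2 against Pcp2, as log10 ratios of animal to pool, 1 point per animal (n = 248 and 242). Many animals with Gabra6 far below the pool had low values of Eomes for their Doc2g (r = 0.651), and Calb2 rose with Pcp2 (r = 0.698). Exceptions on the left include animal 8, with Gabra6 at -1.93 and -0.0790 left of Eomes, and animal 16, with -1.07 and -0.0950.

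Tbx21 and Eomes are also known from cytotoxic lymphocytes, so that 14 genes of T and NK cells were set beside them. With Tbx21 1 of 14 rose (2.63% of all genes rose), Il2rb, the interleukin 2 receptor chain, at r = 0.198 (limma, adjusted p = 0.0469). With Eomes 2 of 14 rose, Cxcr3 and Cd3d, which is close to the 13.3% of all genes that rose with it. The count with Tbx21 was 0 without the 12 arrays of largest spread and 4 on ranks. The median log10 ratio of the 14 genes ran between -0.0876 and 0.237 over the 248 arrays. With Doc2g and Eomes held constant 7 of 14 rose with Tbx21 and 0 fell, in a fit that called 41.4% of all genes, 19.4% as rising and 22% as falling. Ccl5, a chemokine, had the largest slope, 0.357 ± 0.0804, and Ncr1, an NK cell receptor, the smallest of the 7.

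The count of 7 was 3 of 14 without the 12 arrays of largest spread and 5 of 14 on ranks. With S100a5, 5 of the 14 rose and 2 fell in the same fit (15.1% of all genes rose and 21.3% fell). What Doc2g and Eomes left of Tbx21 and of S100a5 correlated at 0.507, so the counts of the 2 genes are not independent. The part of lymphocytes in these counts was not tested. With S100a5 held constant as well, 5 of 14 rose with Tbx21, in a fit that called 34.8% of all genes, 17.1% as rising and 17.7% as falling.

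With Doc2g and Eomes held constant, 41.4% of genes were called with Tbx21, 36.4% with S100a5 and 64.1% with Calb2, the last made up of 30.8% rising and 33.3% falling. With Eomes held constant 33.7% were called with Doc2g, 20.1% rising and 13.6% falling, and with Doc2g held constant 40.5% with Eomes. Scgn still led for Tbx21 and S100a5, at r of 0.622 and 0.620 (n = 248), and CPA6 followed at 0.518 and 0.554. Next for Tbx21 were Zcchc8 (-0.551), Asl, an enzyme of arginine synthesis (-0.534), and Fam98c (-0.532). Of the 11 cerebellum genes 10 fell with Tbx21 and 10 with S100a5 in this fit, in which Eomes, itself rising with 10 of them, was held constant. Of all genes 22% and 21.3% fell there with Tbx21 and S100a5.

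In an F2 cross neighbouring genes are inherited together in long stretches, so the neighbours of each gene on its chromosome were set beside genes elsewhere. Among the 100 measured genes within 50 places of Tbx21 on chromosome 11, 4 were called with it, which is 4%, against 3.86% on other chromosomes. With Doc2g and Eomes held constant 41 of the 100 were called, against 41.8% elsewhere. The nearest genes, Mrpl10 and Kpnb1, had r of 0.0159 and 0.0134 with Tbx21, and -0.159 and 0.231 in the adjusted fit. Within 10 places 10 of 20 genes were called there, with Socs7 the highest in size of r at 0.300.

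S100a5 had 3 of 100 neighbours called, against 2.72% elsewhere, and 32 of 100 against 36.7% in the adjusted fit. For Eomes on chromosome 9 the counts were 23 of 100 against 26.6%, and with Doc2g held constant 43 of 100 against 40.8%, with Snrk highest at 0.696. For Calb2 on chromosome 8 they were 54 of 100 against 53.5%, and 64 of 100 against 64.0% in the adjusted fit. For Doc2g, near the start of chromosome 19, they were 11 of 63 genes (17.5%) against 13.0%. With Eomes held constant they were 22 of 63 (34.9%) against 34.1%. The share among neighbours was thus close to that elsewhere for Tbx21 in both fits. For Doc2g it was above that elsewhere in the fit of Doc2g alone and close to it with Eomes held constant. No test of the difference was made for any of the 5. A variant that acts on 1 gene need not move the transcripts of its neighbours. These shares therefore cannot show whether the level of a gene is inherited, which was not tested.

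**Figure D5:**
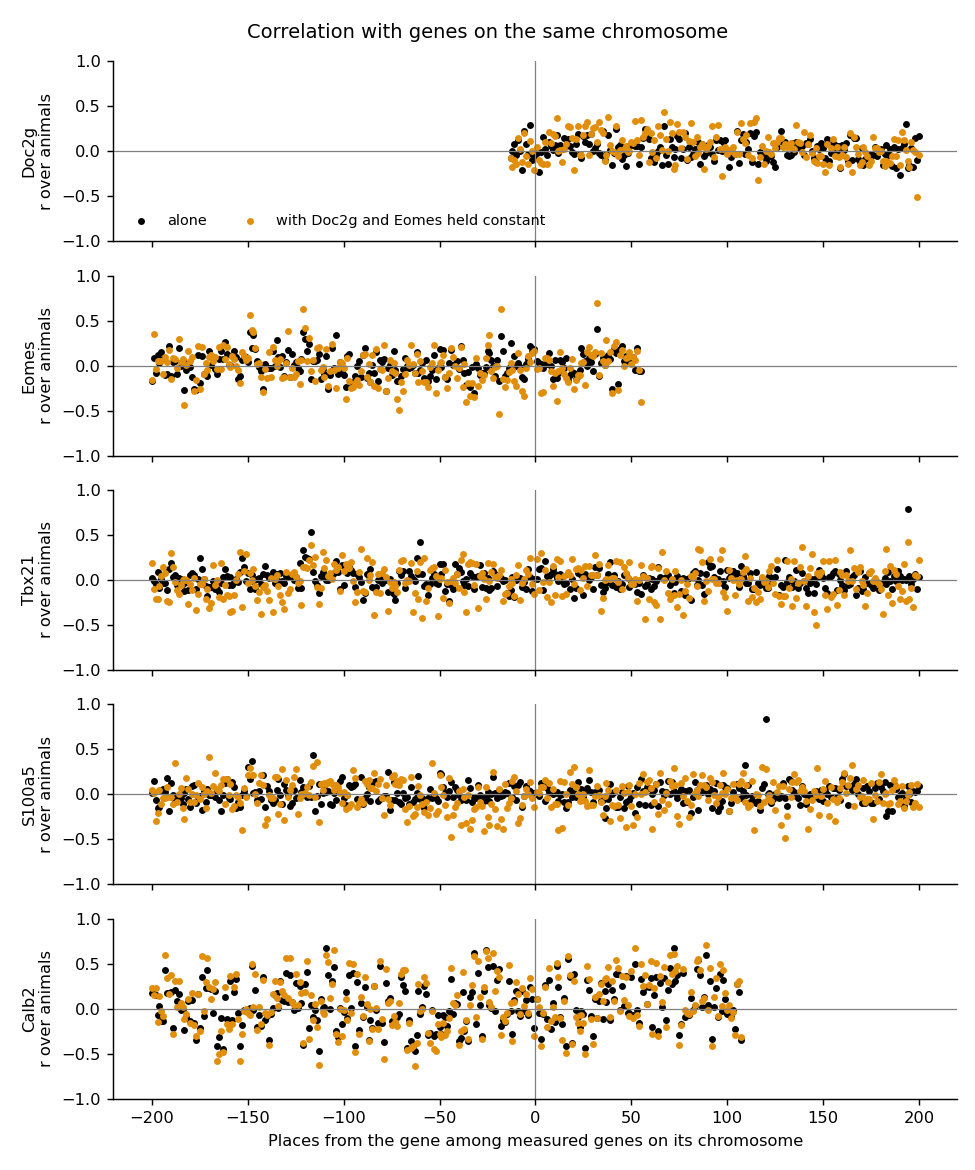
Pearson r over animals (vertical axes) of each gene with measured genes up to 200 places away on the same chromosome (horizontal axis), alone in black and with Doc2g and Eomes held constant in orange (for Doc2g and Eomes, the other of the pair). Around Tbx21 and S100a5 the values show no rise towards place 0, where 4 of 100 and 3 of 100 neighbours within 50 places were called in the fit of each gene alone.

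The labels give no batch, and the animals were therefore divided by their numbers, 193 and up against 192 and below. This division was added after the data were seen. Doc2g, Tbx21 and S100a5 correlated at r of 0.915 to 0.922, so their differences below are not independent of each other. Doc2g averaged -0.0623 ± 0.130 in the higher-numbered and 0.0135 ± 0.171 in the lower-numbered animals (SD, n = 124 each). The difference, -0.0757 ± 0.0192 (SE), had an adjusted p of 0.00203 in a limma fit over all genes that called 18.3% of them, 7.03% as higher and 11.3% as lower in the higher-numbered animals. S100a5 averaged -0.267 ± 0.323 in the higher-numbered and -0.0814 ± 0.410 in the lower-numbered animals, a difference of -0.186 (limma, adjusted p = 0.00181), and Tbx21 -0.172 ± 0.238 and -0.0640 ± 0.292, a difference of -0.108 (adjusted p = 0.0131).

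Of the higher-numbered animals 30 of 124 stood above the pool in Doc2g, against 51 of 124 lower-numbered ones. The counts were 33 against 53 for Tbx21, 25 against 47 for S100a5, 46 against 50 for Eomes, and 72 of 123 against 61 of 119 for Calb2, and these counts were not tested. Eomes differed by -0.0107 (limma, adjusted p = 0.845) and Calb2 by 0.00358 (adjusted p = 0.886), with the Calb2 gaps filled by its mean. What the numbers stand for is not given, and their part in these differences was not tested. Within the higher and the lower numbers r was 0.890 and 0.927 for Doc2g with Tbx21, 0.869 and 0.935 for Doc2g with S100a5, and 0.899 and 0.932 for Tbx21 with S100a5. For Eomes with Calb2 it was 0.158 and 0.405.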

How the data were processed

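The authors deposited 1 log10 ratio per probe and array, and per the labels the animal carried Cy3 and the pool Cy5. Scanner, background treatment and normalization: not given in the sources used here. Base, direction and centring come from the data, since Y-linked Eif2s3y had an upper component at 0.284, near the 0.301 of a pool of both sexes in equal parts. Values end at -2 and 2. The labels name 330 mice, and 249 arrays were used here. For 1 sample the title and source name give different numbers, and the source name was used.

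For each gene the probes with that symbol alone were averaged, measured on at least 90% of arrays, gaps filled with the probe's mean (13444 probes). GRCm38.p6 gave current symbols and gene order for 10892 genes. Arrays without a Calb2 value were left out of fits on Calb2. Fits used limma 3.58.1 in R 4.3.3, tested on simulated data, with Benjamini-Hochberg adjustment over all genes. Mixtures, r and SD are descriptions, computed in Python 3.11.15. The 5 genes and the 19 gene lists were chosen with earlier results of these data known. Named are, for each gene, the 5 highest and 3 lowest in r, the 5 of smallest p in the adjusted fit, the nearest neighbours, and in each list those called with the largest and smallest slope. P-values measure the spread between animals, each measured on a single array. Other settings were animal 144 included, the 12 widest arrays left out, arrays scaled to 1 SD, values at the ends removed, 1 probe per gene, complete probes, ranks, and animal number as a covariate.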

Additional observations from a re-analysis of the deposited data

Results flagged for a closer look

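The array of animal 144 is left out of the main values and enters only where its inclusion is stated. On that array Tbx21 stood at 0.752, above the highest of the other 248 arrays (0.611). The median of the 14 T and NK lymphocyte genes was 0.813 there, against -0.0876 to 0.237 on the others, and the median of 7 lung genes was 0.773, against -1.48 to -0.977. The part of either in the Tbx21 value was not tested. Doc2g stood at -0.0249 and Eomes at -0.0415, close to the pool, S100a5 at -0.548, and Calb2 at -1.40, below every other array.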

How the results depend on the processing

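Over the alternatives run, the differences by animal number kept their direction and side of the threshold in 25 of 25 cases, the shares of variance stayed within their 95% interval in 25 of 25, the SD in 24 of 25 and r between members in 77 of 90, component differences moved by less than the within-component SD in 22 of 25, and counts of associated genes (within 1.5 times) in 77 of 83. On ranks the number of genes called was 2668 with Doc2g, 682 with Tbx21 and 2939 with Tbx21 given Doc2g and Eomes. With animal 144 included it was 1869 with Tbx21 and 192 with S100a5, and with arrays scaled to 1 SD it was 789 with Tbx21. With animal 144 the SD of Calb2 was 0.131, its component difference 1.39, r of Tbx21 with S100a5 0.889 and with Calb2 -0.109. The component difference of Calb2 was 0.257 without the 12 widest arrays and 0.194 with scaled arrays, against 0.338. The Spearman rank correlation was 0.846 for Doc2g with Tbx21, 0.804 for Doc2g with S100a5, 0.855 for Tbx21 with S100a5, 0.673 for Eomes with S100a5 and 0.174 for Eomes with Calb2. In the higher-numbered animals r was 0.890 (Doc2g, Tbx21), 0.869 (Doc2g, S100a5), 0.899 (Tbx21, S100a5) and 0.158 (Eomes, Calb2), and in the lower-numbered 0.831 (Doc2g, Eomes) and 0.935 (Doc2g, S100a5). The cause of these shifts was not tested. Doc2g and Eomes, held constant in the adjusted fits, carry their own unmeasured error. Holding S100a5 constant for Tbx21, Tbx21 for S100a5, and the fit by animal number were added after the data were seen. How far signals stood above background is unknown, since intensities were not used here. No paired analysis was possible because the animals form 1 group.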
